A study of Mus musculus with 65 samples.

Results

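p3 and p2 progenitors sorted from the same cultures at 100 nM SAG were compared by RNA-seq, with 6 libraries of each cell type out of 65 libraries in the series. The cultures started from HM1 mouse embryonic stem cells and were taken to neuromesodermal progenitors by day 3 and then given retinoic acid together with SAG, an agonist that turns on Shh signalling by binding Smoothened. All 12 libraries had the same SAG dose throughout, and both days sampled, day 5 and day 6, had 3 p3 and 3 p2 libraries from independent differentiations. The p3 libraries came from fixed cells stained for intracellular proteins and gated as SOX2+ NKX2.2+ OLIG2-, and the p2 libraries from cells gated as NKX6.1+ PAX6+. No protein of the floor plate was in the sort panel. The libraries were chosen by the cell type, dose and day on their labels, and no measured value entered the choice. HM1 is 1 cell line. Other libraries of the series, p3 at 500 nM (5 libraries), p2 at 10 nM (6) and pMN at 100 nM (6), were used where stated.

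The ventral spinal cord is patterned by Shh from the notochord and floor plate. High and long exposure yields p3 progenitors, which express Nkx2-2 and give V3 interneurons, whereas lower exposure yields pMN progenitors (motor neurons, Olig2) and then p2 progenitors (V2 interneurons, Pax6, Irx3 and Nkx6-1). The floor plate lies ventral to p3, is made of glia-like cells that secrete Shh, netrin-1 and Slit proteins, and is marked by Foxa2. Neighbouring progenitor types keep their identity through pairs of transcription factors that repress each other, among them NKX2-2 and PAX6.

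In p3 relative to p2, 45 of 13964 genes tested were higher and 60 were lower (0.322% and 0.43%, or 0.752% together) at an adjusted p under 0.01 and a change of more than 2-fold. These were found with limma on log2(normalised read count + 1), as the mean of the day 5 and day 6 differences. Where the mean level reached 100 in p3 or in p2, the genes that rose most were Foxa2, Sox5, Nkx2-2 and Vtn, and the genes that fell most were Gbp8, Flrt2, Dcx and Xlr3a. Of 11 floor plate genes tested, 5 rose and none fell. Of 14 p2 genes tested only Pax6 fell, and its protein was used to sort the p2 cells. The change of the median gene was -0.08 on the log2 scale. The groups did not overlap for 18 of the 45 and 21 of the 60, whereas over all genes tested p3 lay above p2 in every library for 0.344% and below it for 0.516% (0.859% together). The number of calls changed with the test. The 12 libraries fitted alone gave 6 genes (Nkx2-2, Nnat, Pax6, Slit1, Sox5 and Cnrip1), array weights gave 25, and on recovered reads edgeR gave 51 and DESeq2 gave 1167. Among the genes called by the main test, 13 were also called both with array weights and with edgeR, including Nkx2-9, Id3, Nnat, Pax6 and Robo1. Nkx2-2, Foxa2, Shh, Slit1, Ntn1, Sox5, Vtn, Dbh, Sp8 and Foxe3 were not among the 13.

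Depth was similar across the 12 libraries, at 8370994 to 13079934 assigned reads. Complexity was not: 10338 to 12985 genes had a read, and the p3 libraries of day 5 (10571 to 12453 genes) were all below the p2 libraries of that day (12642 to 12985). On day 6 the ranges overlapped, at 10338 to 12543 in p3 and 10541 to 12617 in p2. The 3 libraries with the fewest genes were p3 day 5 replicate 2, p3 day 6 replicate 2 and p2 day 6 replicate 3. Without these 3, a comparison added after seeing the data, 99 genes were called (57 higher and 42 lower), of which 52 were among the 105: 30 of the 45 higher and 22 of the 60 lower. The genes described here that were not called without these 3 were Slit1, Notch2, Sema3b, Yipf2, Lrp1 and Sphkap among the higher, and Gbp8, Flrt2, Dcx, Xlr3a, Cnrip1, 2610316D01Rik, Tmem159, Rasl11a, Nxf3, Sumf1, Scube2 and Sfrp2 among the lower. Leaving out 1 library at a time gave 68 to 224 calls. The count fell to 68 without p2 day 5 replicate 2 and rose to 168 without p3 day 5 replicate 1, 164 without p3 day 5 replicate 3, 224 without p2 day 6 replicate 2, 179 without p3 day 6 replicate 1 and 181 without p3 day 6 replicate 3. The balance of the directions moved too, from 36 higher and 145 lower without p3 day 6 replicate 3 to 145 higher and 79 lower without p2 day 6 replicate 2. In bulk libraries such as these, fewer cells with a transcript and less of it per cell cannot be told apart.

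**Figure D1:**
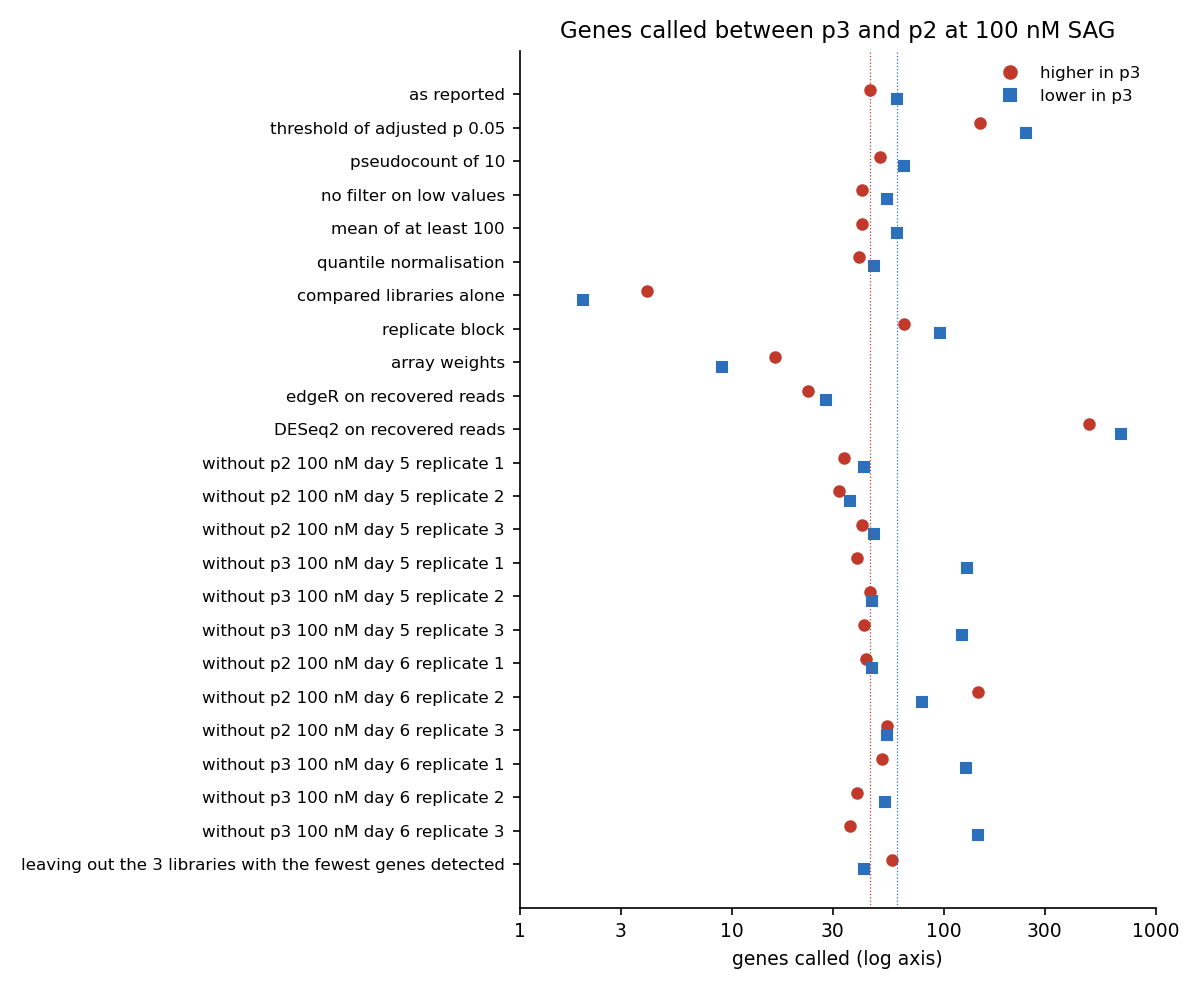
Number of genes called higher (circles) and lower (squares) in p3 than in p2 at 100 nM SAG, on a log axis, for the test as reported (45 and 60, dotted lines) and for each alternative. The 12 libraries alone, array weights and edgeR sit to the left, and DESeq2 far to the right at 484 and 683.

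The mRNAs of the 5 proteins used to sort the cells were examined first, as a check of the labels and not as a finding. Nkx2-2, the homeodomain gene that defines p3 (chromosome 2, 147177546 to 147186402, minus strand, mm10), was at 214 to 426 (median 305) normalised read counts in the p3 libraries and 0 to 5.54 (median 0) in the p2 libraries. Pax6, a paired-domain gene of p2 and more dorsal progenitors (chromosome 2, 105668896 to 105698410, plus strand), was at 77.1 to 248 (median 158) in p3 and 1847 to 4013 (median 3039.7) in p2. Neither gene had overlapping groups, and both differences passed on each day (adjusted p = 8.46e-04 and 9.61e-05 for Nkx2-2, 0.0068 and 2.67e-04 for Pax6, limma). Exons of Nkx2-2os lie opposite those of Nkx2-2 and exons of Elp4 opposite those of Pax6, and the counting is not stated to use strand. Elp4, named after its values were seen, was at 0 to 564 (median 105) in p3 and 136 to 1019 (median 583) in p2 (log2 change -4.35 ± 0.96, SE; adjusted p = 0.00601). Olig2, the pMN gene whose protein the p3 gate excluded, was at 0 to 1741 (median 827) in p3 and 130.3 to 1452 (median 659.8) in p2, against 1368 to 4753 (median 3115) in pMN. The p3 and p2 libraries overlapped in Olig2, with a log2 change of -0.85 ± 1.12 (SE) and adjusted p = 0.745. Nkx6-1, shared by p2, pMN and p3, was at 361 to 893 (median 553) in p3 and 269.8 to 702 (median 332) in p2 (adjusted p = 0.695). Sox2, the progenitor gene, was at 1222 to 2480.3 (median 1870.3) and 1180.5 to 2403 (median 1850.5) (adjusted p = 0.985).

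Nkx2-9, Foxa2, Shh, Slit1 and Ntn1 rose in p3. Of 3 p3 and V3 genes tested, 2 rose (Nkx2-2, whose protein was in the sort, and Nkx2-9), with a median log2 change of 6.11. Of 11 floor plate genes tested, 5 rose (Foxa2, Shh, Nkx2-9, Slit1 and Ntn1) and the other 6 had positive changes that did not pass, with a list median of 4.08 beside -0.08 for all genes tested. Nkx2-9, an NK2 homeodomain gene of the ventral midline (chromosome 12, 56611397 to 56613284, minus strand), ranged over 573 to 2394 (median 1241) in p3 and 0 to 99.4 (median 49.4) in p2, a log2 change of 6.11 ± 0.96 (SE; adjusted p = 1.02e-04). Every p3 library was above every p2 library.

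Foxa2, the forkhead factor of the floor plate (chromosome 2, 148042877 to 148046969, minus strand), had no read in 5 of 6 p2 libraries and 136 in p2 day 5 replicate 3. In p3 it was 977, 427 and 499.6 on day 5 and 756, 453 and 2341 on day 6. The groups did not overlap, and the log2 change was 8.35 ± 1.61 (SE; adjusted p = 0.00137). The paper reports Foxa2 expression in p3 progenitors as well. It also reports little expression of floor plate markers in its spinal cord cultures on day 6, beside cultures made to form floor plate. Whether floor plate cells were among the sorted p3 cells was not tested here. Shh, the ligand itself (chromosome 5, 28456840 to 28467101, minus strand), had no read in any of the 6 p2 libraries and 0.88 to 952 (median 200.3) in p3, the lowest value being 1 read in p3 day 5 replicate 2. Against a floor of 3 reads per p2 library, Shh was at least 109-fold higher in p3 (adjusted p = 1.36e-04), and at least 64.8-fold without p3 day 6 replicate 3. Exons of 9530036O11Rik overlap those of Shh on the other strand.

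Of the secreted guidance cues of the floor plate, Slit1 and Ntn1 rose. Slit1, a repellent that acts through Robo receptors, was at 2347 to 5165 (median 4019) in p3 and 45.3 to 427 (median 248) in p2, groups that did not overlap. Its log2 change of 4.24 ± 0.98 (SE) was near the threshold (adjusted p = 0.00978), and it passed in 2 of the 12 fits that left out 1 library, those without p2 day 6 replicate 1 or replicate 2 (adjusted p = 0.00906 to 0.0291 over the 12). Ntn1, which encodes netrin-1, an attractant of commissural axons, was at 2649 to 7259.8 (median 4650.0) in p3 and 810.4 to 2922 (median 1450.2) in p2, a log2 change of 1.62 ± 0.34 (SE; adjusted p = 0.00328). It missed the threshold without p2 day 5 replicate 2, p3 day 5 replicate 1 or p2 day 6 replicate 1 (highest adjusted p = 0.0209). Spon1 (F-spondin) was at 584 to 4152 (median 1725) in p3 and 36.3 to 812 (median 337) in p2 (adjusted p = 0.0287), and Slit3 at 541 to 1919 (median 1354) and 95.2 to 1705 (median 410.3) (adjusted p = 0.0629), and neither was called.

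**Figure D2:**
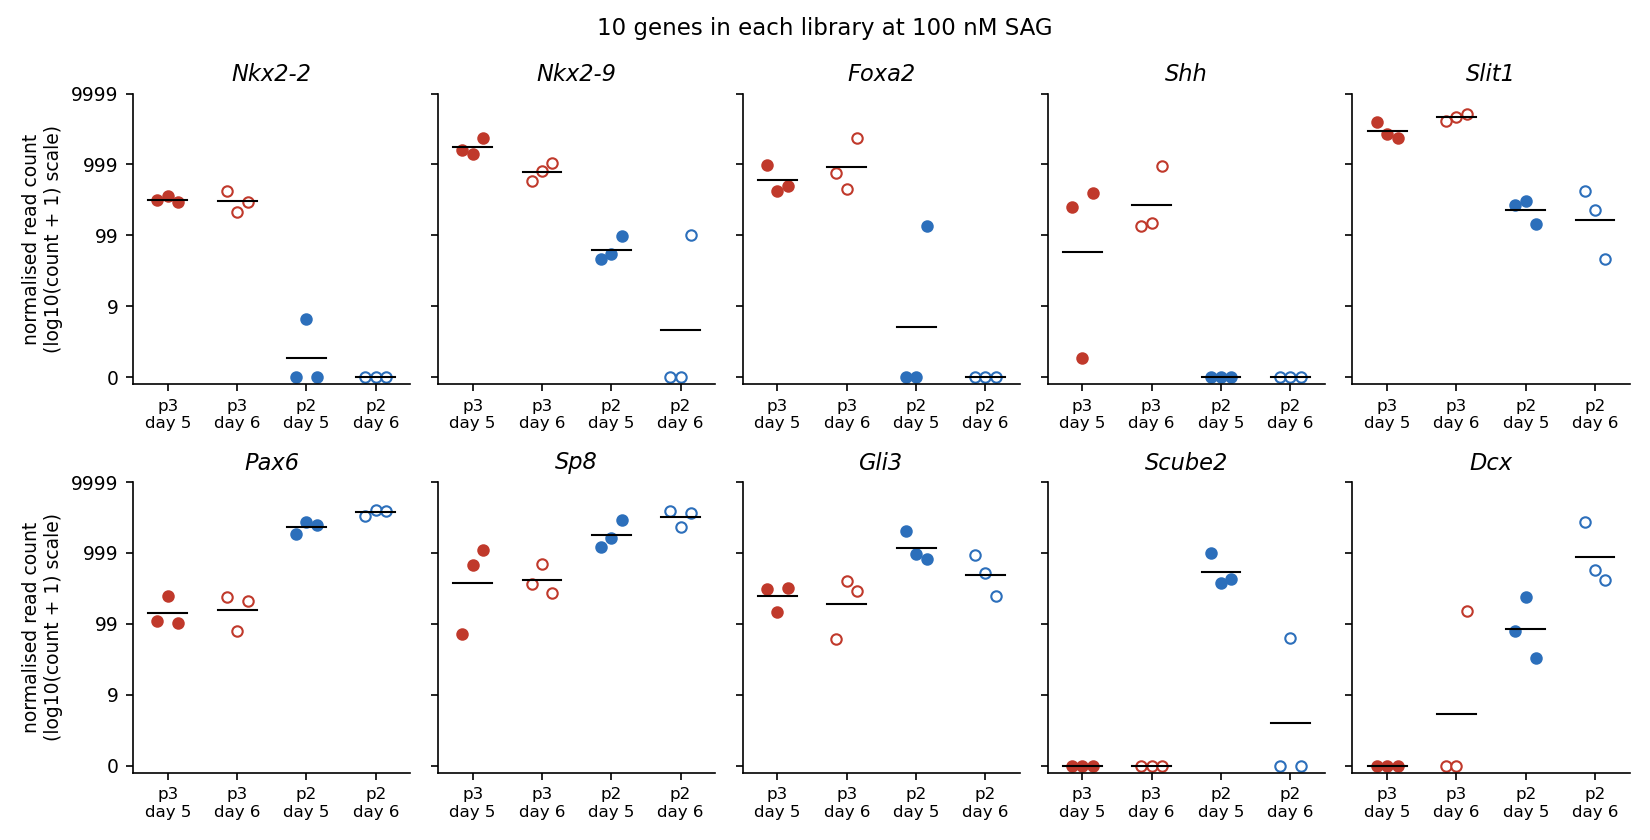
Normalised read counts of 10 genes in each library at 100 nM SAG (points, on a log10(count + 1) axis) by cell type and day, with the mean on that axis as a bar. Nkx2-2, Nkx2-9, Foxa2, Shh and Slit1 are higher in every p3 library than in every p2 library, while Pax6 and Sp8 are lower in every p3 library, and Gli3, Scube2 and Dcx overlap.

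Other genes rose alongside these. Sox5, a SoxD transcription factor, had 162 to 679 (median 200.4) in p3 and no read in any p2 library, at least 115-fold higher against the floor of 3 reads (adjusted p = 3.88e-05). Vtn, which encodes the matrix protein vitronectin, was at 802, 1.76 and 1158 in the p3 libraries of day 5 and 2171, 2355 and 2023 in those of day 6. It had no read in 5 p2 libraries and 295 in p2 day 6 replicate 1, so that p3 day 5 replicate 2 was the only p3 library not above all p2 libraries (log2 change 7.73 ± 1.49, SE; adjusted p = 0.00137). Dbh, the enzyme that makes noradrenaline from dopamine, was at 0 to 449 (median 163) in p3 and at 0 in all 6 p2 libraries, at least 66-fold higher (adjusted p = 3.95e-06). 6430503K07Rik (chromosome 2, 147187424 to 147188482, plus strand) was likewise at 0 in every p2 library and at 0 to 554 (median 355) in p3, at least 106-fold higher (adjusted p = 1.38e-04). Dbh and 6430503K07Rik had p3 libraries at 0 and so overlapped p2. The start of 6430503K07Rik lies 1022 bases from that of Nkx2-2, on the opposite strand. The rest of the 12 highest were Plekhg1 (6.94), Yipf2 (a Golgi protein, 6.98), Sema3b (a secreted semaphorin, 6.51) and Ano4 (an anoctamin, 5.86), with log2 changes in parentheses. Of these, Yipf2 passed in 3 of the 12 fits that left out 1 library and Sema3b in 1 of the 12 (adjusted p = 0.0034 to 0.029 and 0.00762 to 0.043), Sema3b holding without p3 day 6 replicate 1 and Yipf2 without p2 day 5 replicate 2, p2 day 6 replicate 2 or p3 day 6 replicate 3. Ano4 missed it without p3 day 5 replicate 3. Exons of Carm1 and Timm29 lie opposite those of Yipf2.

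Pax6, Sp8 and Foxe3 fell in p3. The log2 change of Pax6 was -4.31 ± 0.54 (SE), 19.8-fold lower, and it passed under all 22 alternatives. Sp8, a zinc-finger transcription factor, was at 70.2 to 1089.6 (median 515) in p3 and 1215 to 3879 (median 2614) in p2. Each p3 library was below each p2 library, with a log2 change of -2.61 ± 0.48 (SE; adjusted p = 7.35e-04). Foxe3, a forkhead factor best known from the lens, was at 0 in 5 p3 libraries and 145 in p3 day 5 replicate 2, against 57.3 to 226 (median 147) in p2 (log2 change -5.78 ± 0.93, SE; adjusted p = 1.10e-04). On the p2 list of 14 genes tested, the sort gene Pax6 was the one call, 7 had positive and 7 negative changes, and the median was -0.16. Irx3 was at 438 to 1676 (median 600.2) in p3 and 456 to 2058 (median 1260.4) in p2 (adjusted p = 0.521), and Nkx6-2, which is shared with p3, at 953 to 1891 (median 1358) and 4.77 to 998 (median 389) (adjusted p = 0.204). Of 7 genes of p0-1 and dorsal progenitors tested, none was called. Of the 19 genes on the list, 9 were at 0 in all 12 libraries. Their summed level was 0 to 178 (median 18.5) in p3 and 0.87 to 778 (median 31.2) in p2, the highest being in p2 day 6 replicate 3.

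Promoter windows of 300 bases (250 before and 50 from the transcript start, RefSeq, GRCm38.p6) are printed for genes at the centre of the comparison, so that their letters can be read beside the values. Windows were found for 34 of the 45 higher and 45 of the 60 lower genes, with 43 and 54 windows. In all, 3 motifs were searched on both strands, TNAAGTG (NK2 class homeodomain, the class of NKX2-2), TGTTTAC (FOXA) and TGGGTGGTC (GLI). TNAAGTG was in 14% of the windows of higher genes, 11.1% of those of lower genes and 11.5% of all 32851 windows. TGTTTAC was in 2.33%, 1.85% and 3.65%, and TGGGTGGTC in 0, 0 and 0.253%. The shares in both groups were thus near those of all promoters. The printed windows of Nkx2-2, Vtn and Sp8 hold 1 match each to TNAAGTG, in capitals, at 197 to 191, 140 to 134 and 54 to 48 bases before the start. The Sp8 window is that of a transcript that starts inside the gene as deposited. The Sp8 windows not printed, at the deposited start and at a further start inside the gene, hold no match to any of the motifs. The printed windows of Foxa2 and Pax6 hold no match to any of the motifs.
Nkx2-2, chr2:147186353-147186652, minus strand: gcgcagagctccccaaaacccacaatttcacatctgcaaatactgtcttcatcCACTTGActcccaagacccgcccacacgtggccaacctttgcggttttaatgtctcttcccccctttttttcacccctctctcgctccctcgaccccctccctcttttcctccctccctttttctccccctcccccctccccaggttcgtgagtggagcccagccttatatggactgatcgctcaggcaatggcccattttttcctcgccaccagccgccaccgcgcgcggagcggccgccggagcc
Foxa2, chr2:148046920-148047219, minus strand: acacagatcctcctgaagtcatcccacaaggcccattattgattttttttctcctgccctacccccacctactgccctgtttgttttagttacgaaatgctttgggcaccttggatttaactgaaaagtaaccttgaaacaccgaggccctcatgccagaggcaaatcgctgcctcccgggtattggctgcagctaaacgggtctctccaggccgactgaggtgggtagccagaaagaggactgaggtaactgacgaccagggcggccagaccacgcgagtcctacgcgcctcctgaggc
Vtn, chr11:78498870-78499169, plus strand: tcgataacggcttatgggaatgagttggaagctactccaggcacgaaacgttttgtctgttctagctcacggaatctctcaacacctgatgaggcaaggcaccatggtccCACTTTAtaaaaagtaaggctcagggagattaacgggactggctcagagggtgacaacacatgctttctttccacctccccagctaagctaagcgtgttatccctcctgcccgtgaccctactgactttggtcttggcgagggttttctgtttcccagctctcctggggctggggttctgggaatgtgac
Pax6, chr2:105668646-105668945, plus strand: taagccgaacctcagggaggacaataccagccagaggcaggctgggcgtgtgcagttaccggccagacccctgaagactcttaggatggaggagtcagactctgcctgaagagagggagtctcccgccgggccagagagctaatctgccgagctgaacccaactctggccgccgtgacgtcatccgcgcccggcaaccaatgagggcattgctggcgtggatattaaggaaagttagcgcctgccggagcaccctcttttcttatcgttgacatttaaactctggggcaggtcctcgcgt
Sp8, chr12:118846983-118847282, plus strand: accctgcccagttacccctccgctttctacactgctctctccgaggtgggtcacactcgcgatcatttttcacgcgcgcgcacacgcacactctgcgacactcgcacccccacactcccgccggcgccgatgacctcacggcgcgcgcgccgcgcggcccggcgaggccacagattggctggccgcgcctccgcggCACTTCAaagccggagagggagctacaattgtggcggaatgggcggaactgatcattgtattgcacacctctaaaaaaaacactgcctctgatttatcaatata

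The 12 genes with the largest falls had log2 changes from -5.55 to -7.10. Gbp8, a guanylate-binding GTPase of the interferon response, was at 0 in 5 p3 libraries and 21.1 in the other, and at 0 to 878 (median 641) in p2 (log2 change -7.10 ± 1.50, SE; adjusted p = 0.00397). Gbp8 belongs to a family of similar genes, and reads shared among them make its level uncertain. It missed the threshold without p2 day 5 replicate 1, p2 day 5 replicate 2 or p3 day 5 replicate 2 (highest adjusted p = 0.0239). Flrt2, a leucine-rich-repeat membrane protein, and Cnrip1, which binds the cannabinoid receptor, had no read in any p3 library and 10.6 to 1084 (median 153) and 42.6 to 209.9 (median 110.1) in p2, at least 114-fold and 43.1-fold lower in p3 (adjusted p = 0.00233 and 0.0026). Without p2 day 6 replicate 1 the bound for Flrt2 was 52.5-fold. Xlr3a, one of a cluster of near-identical X-linked genes and so also uncertain, was at 0 to 324 (median 0) in p3 and 14.2 to 1053 (median 675) in p2 (adjusted p = 0.00137). The others were 2610316D01Rik (-5.98), Tmem159 (a lipid droplet protein, -5.80), Rasl11a (a small GTPase, -5.76), Nxf3 (an RNA export factor, -5.69) and Sumf1 (which activates sulfatases, -5.58), with log2 changes in parentheses. Nxf3 and Sumf1 passed in 2 of the 12 and 5 of the 12 fits that left out 1 library (adjusted p = 6.80e-04 to 0.0374 and 0.00261 to 0.0441), Nxf3 holding without p3 day 5 replicate 1 or p3 day 6 replicate 1, and Sumf1 missing without p2 day 5 replicates 1, 2 or 3, p3 day 5 replicate 2, p2 day 6 replicates 1 or 3 or p3 day 6 replicate 2. The calls of Flrt2, 2610316D01Rik, Tmem159 and Rasl11a were each lost without 1 library, in turn p2 day 6 replicate 1, p2 day 5 replicate 3, p3 day 6 replicate 2 and p3 day 5 replicate 2. Of the 60 genes that fell, 12 to 17 had no read in a given p3 library and at most 1 had none in a given p2 library, while of the 45 that rose 10 to 20 had none in a given p2 library and 0 to 4 in a given p3 library. These genes were chosen by the difference of p3 and p2 in the same libraries, so these counts describe the calls and are no separate result.

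Of 30 genes of neurogenesis tested, 1 fell and none rose. In all, 22 of the 30 changes were negative and 8 positive with a median of -0.97, beside 7493 negative of 13964 and a median of -0.08 over all genes. The gene that fell was Dcx, the microtubule-binding protein doublecortin of migrating neurons, at 0 in 5 p3 libraries and 151 in p3 day 6 replicate 3, against 31.6 to 2747 (median 322) in p2. Its log2 change was -6.87 ± 1.47 (SE; adjusted p = 0.00437), and it missed the threshold without p2 day 5 replicate 1, p2 day 5 replicate 2, p2 day 6 replicate 1, p3 day 6 replicate 1 or p3 day 6 replicate 2 (highest adjusted p = 0.0179). Neurod1, a proneural factor, was at 3.72 to 447 (median 116) in p3 and 227 to 2287 (median 745) in p2 and was not called (adjusted p = 0.0174). Of the most abundant members, Gadd45g, a cell cycle regulator switched on in new neurons, was at 1137 to 4533 (median 2722) and 3244 to 6381 (median 4088) (adjusted p = 0.162), and Tagln3, a neuronal actin-binding protein, at 1579 to 2825 (median 2239.6) and 513 to 2798 (median 968) (adjusted p = 0.375).

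Within the Shh pathway, which runs from the ligand and its release factors through the receptors Ptch1 and Smo to the Gli factors, 1 of 20 genes rose (Shh) and 2 fell (Scube2 and Gli3), with a median of -0.35. Scube2, a secreted protein that helps to release Shh from the cells that make it, had no read in any of the 6 p3 libraries. In p2 it was 994, 375 and 434 on day 5 but 0, 62.9 and 0 on day 6. The groups did not overlap on day 5, when Scube2 was at least 247-fold lower in p3 against the floor of 3 reads (adjusted p = 0.0068), while on day 6 the bound was 7.75-fold and the change was not called (adjusted p = 0.585). Over both days the change was called (adjusted p = 0.00644), with a bound of 121-fold that was 67.8-fold without p2 day 5 replicate 1. It missed the threshold without any of p2 day 5 replicates 1, 2 and 3, p3 day 5 replicate 2, p2 day 6 replicate 2 or p3 day 6 replicate 2 (highest adjusted p = 0.024). Gli3, the Gli factor that acts mainly as a repressor, was at 60.3 to 399 (median 299) in p3 and 249.6 to 2013 (median 877) in p2, a 3.52-fold fall at the edge of the threshold (adjusted p = 0.00998, and 0.00398 to 0.0422 over the 12 fits that left out 1 library, 5 of which called it, the others being those without p2 day 5 replicates 1, 2 or 3, p3 day 5 replicate 2, p2 day 6 replicates 1 or 2 or p3 day 6 replicate 1). The most abundant members gave no call: the receptor and target Ptch1 was at 3291 to 5452 (median 4284) in p3 and 1920.1 to 6540.3 (median 3235) in p2 (adjusted p = 0.578), and the transducer Smo at 2195 to 3628 (median 2974) and 1167 to 2611 (median 1755) (adjusted p = 0.0632).

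In the Wnt pathway 2 of 39 genes fell and none rose (median -0.61). Sfrp2, a secreted Wnt antagonist, was at 567 to 2295 (median 1828) in p3 and 1798 to 4698 (median 3770.2) in p2 (log2 change -1.15 ± 0.24, SE; adjusted p = 0.00299), and missed the threshold without p2 day 5 replicate 3 or p3 day 5 replicate 2 (highest adjusted p = 0.0211). The other was Sp8, which is also a Wnt-responsive factor. Of 19 BMP genes 1 rose, Id3, a helix-loop-helix inhibitor that BMP signalling induces, at 2339.9 to 4479.9 (median 3485) in p3 and 109 to 1647 (median 971) in p2 (log2 change 2.19 ± 0.31, SE; adjusted p = 1.38e-05). Every p3 library was above every p2 library. Of 18 Notch genes 1 rose, the receptor Notch2, at 1549 to 5657 (median 2187) in p3 and 595 to 1841 (median 841) in p2 (log2 change 1.32 ± 0.30, SE; adjusted p = 0.00854), which passed in 5 of the 12 fits that left out 1 library (adjusted p = 0.00332 to 0.0358) and missed the threshold without p2 day 5 replicates 1 or 2, p3 day 5 replicate 3, p2 day 6 replicates 1 or 3 or p3 day 6 replicates 2 or 3. Hes5, a Notch target of progenitors, was at 2985 to 6450.2 (median 4782) in p3 and 7322 to 11077 (median 9349) in p2, groups that did not overlap, but its change of -0.96 ± 0.27 (SE) was under 2-fold and was not called (adjusted p = 0.0361). None of 17 FGF genes (median 0.23) and none of 17 retinoic acid genes (median 0.00) was called over both days. On day 6 alone, Rxrb of the retinoic acid list was called higher in p3, a gene named after its values were seen. Crabp1 and Crabp2, which bind retinoic acid in the cytoplasm, were at 936 to 5579.7 (median 3338) and 3806 to 9246 (median 5929.8) in p3 and 1052 to 5054 (median 2772) and 5529 to 10263 (median 7369) in p2 (adjusted p = 0.832 and 0.166).

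Beyond Slit1 and Ntn1, 1 of 36 axon guidance genes fell (list median 0.06). Robo1, a receptor for Slit proteins, was at 0 to 139 (median 33.7) in p3 and 113 to 1465 (median 285) in p2 (log2 change -4.31 ± 0.77, SE; adjusted p = 5.37e-04), and the groups overlapped through p3 day 5 replicate 1.

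Over both days, no gene was called among 12 cadherins and adhesion molecules, 10 of gliogenic competence, 12 general neural progenitor genes, 20 cell cycle genes or 21 Hox genes. Their list medians were 0.07, -0.53, 0.13, 0.00 and -0.28. On day 6 alone, Mcm2 of the cell cycle list was called higher in p3, a gene named after its values were seen. Ccnd2, which encodes cyclin D2, was at 11683 to 20716 (median 15455) in p3 and 12421 to 29287 (median 20267) in p2 (adjusted p = 0.15). The markers of other cell types gave no call, and their part in the results was not tested. Neuromesodermal and mesodermal genes summed to 0 to 264 in p3 and 92.3 to 396 in p2 with 8 of 14 at 0 in all 12 libraries, endodermal genes to 296 to 901 and 0 to 688 with 5 of 12 at 0 (Sox17, Hnf4a, Afp, Ttr and Foxa3). Pluripotency genes summed to 0 to 53.5 and 1.74 to 97.4 with 3 of 10 at 0. Fibroblast and endothelial genes summed to 63.6 to 417 in p3 and 1.19 to 461 in p2 with 3 of 10 at 0. Of the neural crest genes, Ednrb, an endothelin receptor, was at 8465 to 11609.6 (median 10479) in p3 and 4801 to 11796 (median 5667) in p2 (adjusted p = 0.0945), while Sox10 and Foxd3 were at 0 in all 12. Of motor neuron genes, picked after their values were seen, Isl1 was at 0 to 1196 (median 109) in p3 and 0 to 116 (median 4.34) in p2 (adjusted p = 0.166), Mnx1 at 0 to 267 (median 39.9) and 0 to 15.7 (median 0) (adjusted p = 0.231) and Lhx3 at 0 to 177 (median 0) and 0 to 359 (median 73.9) (adjusted p = 0.104).

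**Figure D3:**
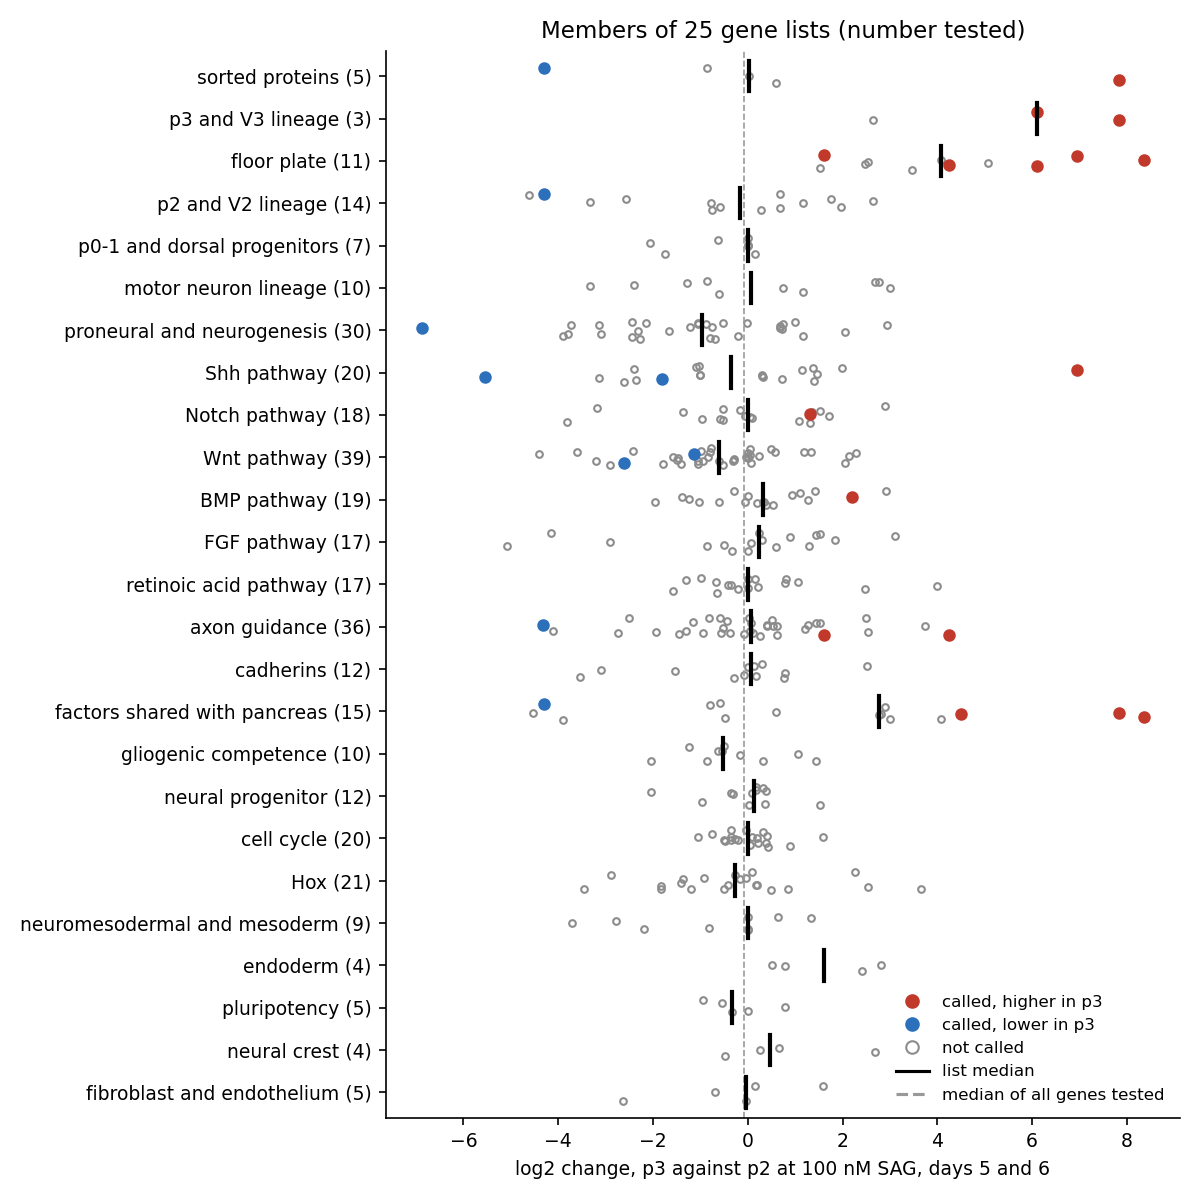
Log2 change of every tested member of 25 gene lists in p3 against p2 at 100 nM SAG (points), with called members filled and each list's median as a bar. Only the p3 and floor plate lists lie wholly to the right of the median of all genes (-0.08, dashed) with called members, and Pax6 at -4.31 and Nkx2-2 at 7.82 stand at the ends of the sorted proteins.

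The same cell types were then compared in libraries that share none of the 12, p3 at 500 nM against p2 at 10 nM, in which the SAG dose differs along with the cell type. There 45 genes were called (0.322% of 13964 tested), 24 higher and 21 lower in p3 (0.172% and 0.15%). Of the 45 genes higher at 100 nM, 42 had the same sign there and 17 were called the same way, which is 37.8% of the 45 and 70.8% of the 24. Of the 60 lower genes, 45 had the same sign and 9 were called the same way, 15% of the 60 and 42.9% of the 21. No gene was called in opposite directions. Over all 13964 genes tested, 7681 changes were positive and 6207 negative at 500 against 10 nM. The median change of the 45 was 3.43 at 100 nM and 1.69 in the other libraries, and that of the 60 was -3.55 and -0.47.

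The genes called in both comparisons included the p3 and floor plate genes Nkx2-2 (log2 change 7.34 ± 0.92, SE, at 500 against 10 nM), Nkx2-9 (9.62 ± 1.02), Foxa2 (9.40 ± 1.71), Shh (7.03 ± 1.20), Slit1 (5.81 ± 1.04) and Ntn1 (1.93 ± 0.36). Vtn, 6430503K07Rik, Dbh and Notch2 also rose in both. Foxa2 was at 232 to 3100.3 (median 1365) in p3 at 500 nM and 0 to 26.5 (median 0) in p2 at 10 nM, and the groups did not overlap there either. Lower in both were Pax6 (-5.42 ± 0.58), Scube2 (-9.09 ± 1.31), Gbp8 (-10.02 ± 1.60), Foxe3 (-7.73 ± 0.98), Sp8 (-2.45 ± 0.50) and Sfrp2 (-2.05 ± 0.25). Nkx2-2 and Pax6 encode proteins of the sort, so their calls here are again a check of the labels. Gbp8 and Foxe3 had no read in any p3 library at 500 nM, and 670.1 to 2129.9 (median 912) and 20.9 to 532 (median 341) in p2 at 10 nM. The other 10 genes shared by both comparisons lay outside the rule for naming genes and were picked after their values were seen. Higher were Gpc3 (glypican-3, which binds Hedgehog and Wnt ligands, 1.83 at 100 nM and 2.11 at 500 against 10 nM), Igfbp5 (which binds insulin-like growth factors, 4.59 and 3.44), Col18a1 (a basement membrane collagen, 1.20 and 1.23), Lrp1 (an endocytic receptor, 1.28 and 1.69), Gpx3 (a secreted glutathione peroxidase, 1.95 and 2.09), Igsf9b (1.37 and 1.47) and Sphkap (2.97 and 5.23). Lower were Cers6 (a ceramide synthase, -2.25 and -1.87), Slc39a14 (a metal ion importer, -1.19 and -1.59) and Vcan (the matrix proteoglycan versican, -1.27 and -1.52). At 100 nM, Gpc3 was not called without p2 day 5 replicates 1 or 2, p3 day 5 replicates 1 or 3, p2 day 6 replicate 1 or p3 day 6 replicates 2 or 3, Sphkap without p2 day 5 replicates 1, 2 or 3, p3 day 5 replicate 2, p2 day 6 replicates 1 or 3 or p3 day 6 replicate 2, Vcan without p2 day 5 replicates 2 or 3, p3 day 5 replicate 1, p2 day 6 replicate 3 or p3 day 6 replicates 2 or 3, Lrp1 without p2 day 5 replicate 3 or p3 day 6 replicate 2 and Slc39a14 without p3 day 5 replicate 2.

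Some of the largest changes at 100 nM were near 0 or of the opposite sign there. Of the 28 higher genes called at 100 nM alone, 14 had a change of a size under 1 on the log2 scale in the other libraries, and of the 51 lower genes 35 did. Genes called at 100 nM alone included Sox5, Id3 and Nnat among the higher and Robo1, Dcx and Gli3 among the lower. Yipf2 was at 56.7 to 412 (median 232) in p3 at 500 nM and 89.5 to 419 (median 215) in p2 at 10 nM (log2 change -0.01 ± 1.66, SE). Xlr3a and Tmem159, which fell at 100 nM, had changes of 2.69 ± 1.38 and 3.08 ± 1.27 (SE; adjusted p = 0.617 and 0.417). Whether the 2 comparisons differ for these genes was not tested. Conversely Slit3 was called at 500 against 10 nM (3.47 ± 0.51, SE; adjusted p = 2.40e-05), as was Hes5 (-1.65 ± 0.29, SE; adjusted p = 4.13e-04), and neither was called at 100 nM.

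**Figure D4:**
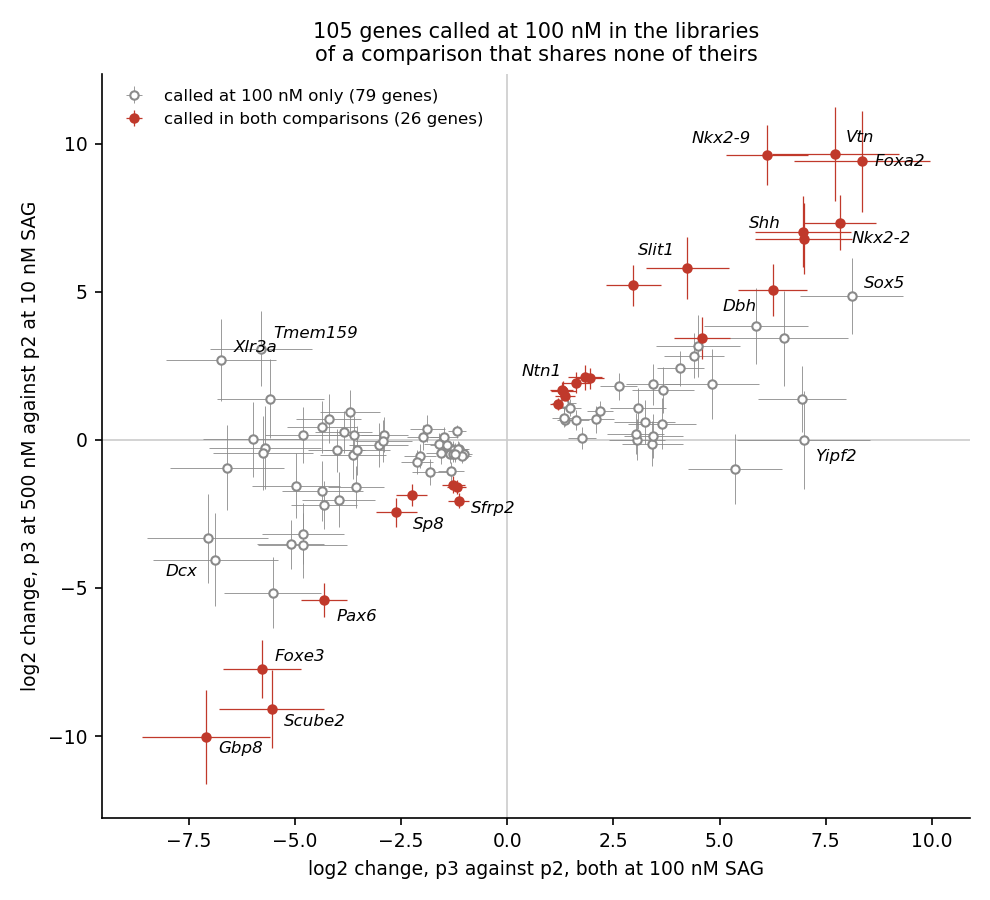
Log2 change (± SE, bars) of the 105 genes called between p3 and p2 at 100 nM (x axis) against that in p3 at 500 nM relative to p2 at 10 nM (y axis), 2 comparisons with no library in common. The 26 genes called in both (filled) lie in the upper right and lower left, while 79 called at 100 nM alone (open) include a band near 0 on the y axis.

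On each day alone, 13 genes were called on day 5 (3 higher and 10 lower, 0.0215% and 0.0716% of those tested and 0.0931% together) and 169 on day 6 (95 higher and 74 lower, 0.68% and 0.53%, or 1.21% together). The median gene changed by -0.16 on day 5 and 0.00 on day 6, and p3 had fewer detected genes than p2 on day 5, as given above, a difference whose part in the day 5 calls was not tested. With quantile normalisation the day 5 calls were 6 higher and 5 lower. The 4 genes called on both days were Nkx2-2, Pax6, Sox5 and Nnat. Nnat, which encodes neuronatin, a small membrane proteolipid, and was named here after its values were seen, was at 5703, 4878 and 3863 in p3 and 1769, 1770.4 and 1618 in p2 on day 5. On day 6 it was at 10111, 8792 and 8885 in p3 and 3857, 2876 and 5174 in p2. p3 was above p2 on each day, the values of both cell types were higher on day 6, and the change of 1.36 ± 0.18 (SE; adjusted p = 5.49e-06) passed under all 22 alternatives, as that of Pax6 did. The difference between p3 and p2 changed from day 5 to day 6 for 6 genes (0.043% of those tested), 4 upward and 2 downward (0.0286% and 0.0143%). All 13 genes of day 5 had the same sign on day 6, and 120 of the 169 of day 6 had the same sign on day 5. Over all genes tested, 5697 changes were positive and 7876 negative on day 5, and 6953 and 6442 on day 6. On day 6 alone, the count went from 74 without p3 day 6 replicate 2 to 448 without p2 day 6 replicate 2 (264 without p3 day 6 replicate 1 and 313 without p3 day 6 replicate 3). The balance on day 6 turned with 1 library, with 357 higher and 91 lower without p2 day 6 replicate 2, 66 higher and 247 lower without p3 day 6 replicate 3, and 76 higher and 188 lower without p3 day 6 replicate 1. On day 5 it went from 3 without p2 day 5 replicate 1 to 101 without p3 day 5 replicate 3, with 99 without p3 day 5 replicate 1, 6 without p2 day 5 replicate 2 and 4 without p2 day 5 replicate 3.

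pMN progenitors from the same cultures lay nearer to p2 than to p3 for most of these genes, as a description of genes that were chosen by the difference of p3 and p2. On the mean log2 level, pMN was nearer to p2 for 35 of the 45 higher and 55 of the 60 lower genes, and between p3 and p2 for 38 and 49. Foxa2, Shh and Slit1 were at 0 to 346 (median 0), 0 to 8.78 (median 0) and 0 to 312 (median 141) in pMN, close to their p2 levels. Nkx2-9 was at 0 to 560.0 (median 159.6), and Sp8 and Sfrp2 at 1262 to 3577 (median 2402) and 1585 to 5368 (median 3875), as in p2. Pax6 at 1406 to 2246 (median 1858) and Id3 at 752 to 1461 (median 1404) lay nearer to p2 as well. Gbp8 and Scube2, at 0 to 175 (median 0) and 0 to 387 (median 7.53) in pMN, had medians nearer to p3.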

How the data were processed

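Bulk RNA-seq libraries (SMART-Seq HT and Nextera XT, with RNA from fixed, sorted cells) were processed by the authors with nf-core/rnaseq, STAR and featureCounts on mm10, with duplicates ignored. The deposited values are gene-level normalised counts divided by a size factor per library, a signal with no fixed total. All values above 0 (834400) were whole multiples of 1 read within 0.01 reads, so reads were recovered for edgeR and DESeq2. Libraries that failed quality control had been removed by the authors. The test was limma 3.58.1 with an intensity trend on log2(value + 1) over all 65 libraries and 25 groups, for genes with a mean of at least 10. Alternatives used edgeR 4.0.16 and DESeq2 1.42.0 in R 4.3.3. In simulated data for the comparison over both days (13964 genes), 42% of 4-fold, 78% of 16-fold and 86% of 64-fold changes in 50 genes each were recovered, with 2 false calls. The changed genes all had a mean of at least 100, so recovery of the lower genes was not tested. Reads were drawn independently per library, with no library of low complexity. The 2 false calls thus do not give the number to be met in the real libraries.

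Named genes were, per list, up to 6 called and 2 uncalled members, all sort genes, the 12 largest called changes per direction with a mean of at least 100 in p3 or p2 and the same sign on both days, and up to 3 day-difference genes per direction. Some genes that this rule names are not reported here. The comparison and the lists were chosen with earlier results of these data known. The p-values rest on the spread within groups, pooled over all 65 libraries and 25 groups, and not on that of the 12 libraries alone. p3 and p2 libraries sorted from the same cultures were treated as independent. Counts, not molecules, were compared, so limits of 3 reads cover counting error only.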

Additional observations from a re-analysis of the deposited data

Results flagged for a closer look

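For 6 genes the difference between p3 and p2 changed between day 5 and day 6 (limma, interaction of cell type and day, 4 upward and 2 downward from day 5 to day 6). Nkiras1, an inhibitor of NF-kappa-B signalling, was at 0 in all p3 libraries of day 5 and 50.5 to 333 in p2, but at 156 to 354 in p3 and 0 in all p2 libraries of day 6, so that the change moved by 15.05 (log2, adjusted p = 2.55e-04). Exons of Ube2e1 lie on the other strand. The changes of Atp23 (a mitochondrial protease), Nnt (a mitochondrial transhydrogenase) and Kat8 (a histone acetyltransferase) moved by 12.25, 9.42 and 7.44 (adjusted p = 0.00283, 0.00215 and 0.0068). On day 6, Atp23, Nnt and Kat8 were low in p2 replicates 1 and 3 (at most 1.19) and at 32.8, 57.6 and 213 in replicate 2. Kat8 was named after its values were seen. Sgsm3, a Rab GTPase-activating protein, and Arhgap1 moved by -7.71 and -6.41 (adjusted p = 0.00215 and 0.0068). On day 6 Sgsm3 was at 5.63, 4.65 and 0 in p3 against 570.3 to 898 in p2, and on day 5 the ranges overlapped. The number of such genes was 0 with array weights, 2 with edgeR and 3 to 88 when each library was left out in turn. It was 3 without p3 day 6 replicate 2, 88 without p2 day 6 replicate 2, 14 without p2 day 6 replicate 1, 19 and 37 without p3 day 6 replicates 1 and 3, and 23 and 24 without p3 day 5 replicates 1 and 3.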

How the results depend on the processing

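The counts of calls varied more than the directions: in 1938 pairs of a named gene and an alternative no called change reversed its sign, 1711 kept their side of the threshold, 208 lost the call and 19 gained it. Of the 85 named genes in these pairs only 35 were called, and only these could lose a call. The pairs that kept their side thus include those of genes not called throughout. The alternatives reuse the same libraries, so a kept sign is not independent support. Over both days 105 genes were called, 393 at adjusted p under 0.05, 161 with a replicate block, 25 with array weights, 51 with edgeR (44 of them among the 105), 1167 with DESeq2 (89 among the 105) and 6 from the 12 libraries alone. The share of higher genes was 42.9% as reported, 64% with array weights, 66.7% from the 12 libraries alone and 57.6% without the 3 libraries with the fewest genes, and 37.7% to 46% under the other settings that kept all libraries. Leaving out 1 library at a time gave 68 to 224 calls, with 19.9% (without p3 day 6 replicate 3) to 64.7% (without p2 day 6 replicate 2) higher. On day 6 that share was 56.2% as reported and 21.1% to 79.7% without the same 2 libraries in turn. On day 5 the 13 calls became 40 at 0.05, 8 with array weights, 662 with DESeq2 and 3 to 101 without 1 library. The 12 libraries alone and edgeR gave 0 on day 5, with 924 and 1412 genes at an unadjusted p under 0.05. On day 6 the 169 became 596 at 0.05, 71 with quantile normalisation, 9 with array weights, 14 with edgeR, 1077 with DESeq2, 0 from the 12 libraries alone (869 genes at an unadjusted p under 0.05) and 74 to 448 without 1 library. The 6 calls for the difference between days became 25 at 0.05, 1 with quantile normalisation, 2 with edgeR, 904 with DESeq2, 16 without the 3 libraries and 3 to 88 without 1. They became 0 with array weights (658 genes at an unadjusted p under 0.05) and 0 from the 12 libraries alone (588). For p3 at 500 nM against p2 at 10 nM the 45 became 112 at 0.05, 75 with a pseudocount of 10, 69 with quantile normalisation, 23 from the compared libraries alone, 133 with array weights, 22 with edgeR, 480 with DESeq2 and 16 to 44 without 1 library, the 16 without p3 500 nM day 6 replicate 3. The cause of these shifts was not tested.

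With the replicate number as a block the counts were 161 over both days (104 of them among the 105), 11 on day 5, 222 on day 6, 9 for the difference and 60 at 500 against 10 nM. The main test did not pair same-numbered p3 and p2 libraries. Their deviations from the group means correlated at -0.041 to 0.061. The cell types were sorted from the same cultures, but whether equal replicate numbers mark the same culture is not stated. With 3 libraries per group, these correlations cannot settle that. Depth limits genes near 0, where 1 read was worth 0.717 to 1.36 normalised counts.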
